A study of Mus musculus with 45 samples.

Results

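Intermediate progenitor cells (IPCs) sorted from the dentate gyrus (DG) of sham-treated mice were compared with whole DG from other sham-treated mice. The comparison used 6 of the 45 libraries of the series, 3 of sham IPCs and 3 of sham whole DG, and these belong to a cohort of 17 libraries made for a lateral fluid percussion injury model of traumatic brain injury (TBI). They were chosen by their labels alone. IPCs came from mice 4, 5 and 6 and whole DG from mice 10, 11 and 12, with 1 library per mouse, so the mouse was the replicate. All 6 mice were labelled as NestinGFP on a C57Bl6J background and were 6 to 9 weeks old. In this line control elements of Nestin drive GFP, so the sort can only collect cells in which these elements are or recently were active. Sham mice had a craniectomy and were attached to the injury device without a fluid pulse, and were killed 4 h later. The IPC gate took live GFP-positive cells without surface GLAST that also lacked CD31, CD45, O1 and O4, and each library was made from part of the lysate of 300 such cells. IPC cDNA was made with the SMART-Seq HT kit after enzymatic dissociation of the tissue, whereas for whole DG 1 ng of extracted RNA entered a directional NEBNext kit. Cell sorting, dissociation, kit and input therefore changed together between the groups, and their parts in any difference below cannot be told apart.

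The DG is one of the few regions of the adult mammalian brain in which neurons are still made. Radial glia-like neural stem cells (NSCs) there give rise to IPCs, which divide, switch on proneural transcription factors and mature through a neuroblast stage into granule neurons. Whole DG is mostly granule neurons, with interneurons, astrocytes, oligodendroglia, microglia and vessel cells. The contrast places cells of the IPC gate against the tissue that holds them. IPC is here the name of that gate, and genes of other cell types were also high in these libraries, as given below.

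Reads in genes ranged from 9604877 to 12804286 in sham IPC libraries and from 11131437 to 11464763 in sham whole DG libraries. Between 17225 and 17880 genes had at least 1 read in sham IPCs, and between 23582 and 23905 did in sham whole DG. Values are normalized counts, that is, reads in a gene divided by a size factor for the library. CLEAR, a filter that removes transcripts too thinly covered in low-input libraries, left a value for 12440 to 13192 genes in sham IPC libraries. Of these values some were 0, and 11586 to 12236 genes had a CLEAR value above 0. The sham whole DG libraries kept a value for all 49922 genes, so the filter acted on the sorted side only. Xist, the transcript of the inactive X chromosome, was at 0 in all 3 sham IPC libraries and at 5110, 46.8 and 5479 normalized counts in whole DG of mice 10, 11 and 12. The Y-linked gene Ddx3y was at 742, 561 and 1106 normalized counts in sham IPCs, against 2.8, 944 and 0 in the same whole DG libraries. The sham IPC libraries thus all held Y-linked RNA and no Xist, a pattern that only the library of mouse 11 came near among sham whole DG, so sex was not balanced between the groups.

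Genes were tested with limma on log2(normalized count + 1), and a gene passed where the Benjamini-Hochberg adjusted p was under 0.05 and the log2 fold change reached 1 or -1. The CLEAR genes are the 10280 with a CLEAR value in each of the 6 libraries and above 0 in at least 1. Of these 2718 (26.4%) were higher in sham IPCs and 2402 (23.4%) were lower. A CLEAR value can be 0, and 224 of the 10280 had no read in any sham IPC library. The unfiltered values were tested for the 18015 genes whose mean reached 10 normalized counts, and 3095 (17.2%) were higher in sham IPCs and 5328 (29.6%) were lower. These shares are the background for each list below, whose counts are from the unfiltered values unless CLEAR genes are named. The median log2 fold change over all genes tested was 0.15 in the CLEAR genes and -0.52 in the unfiltered values. With every library rescaled to one total these medians were 0.47 and -0.21, and the share of the calls that were higher in sham IPCs was 64.2% in place of 53.1% in the CLEAR genes. With libraries rescaled to one median the share in the unfiltered values was 52.9% in place of 36.7%, so the balance of higher and lower genes depends on the scaling. The changes of the neuronal, cell cycle and vessel lists described below have medians further from 0 than these shifts.

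**Figure D1:**
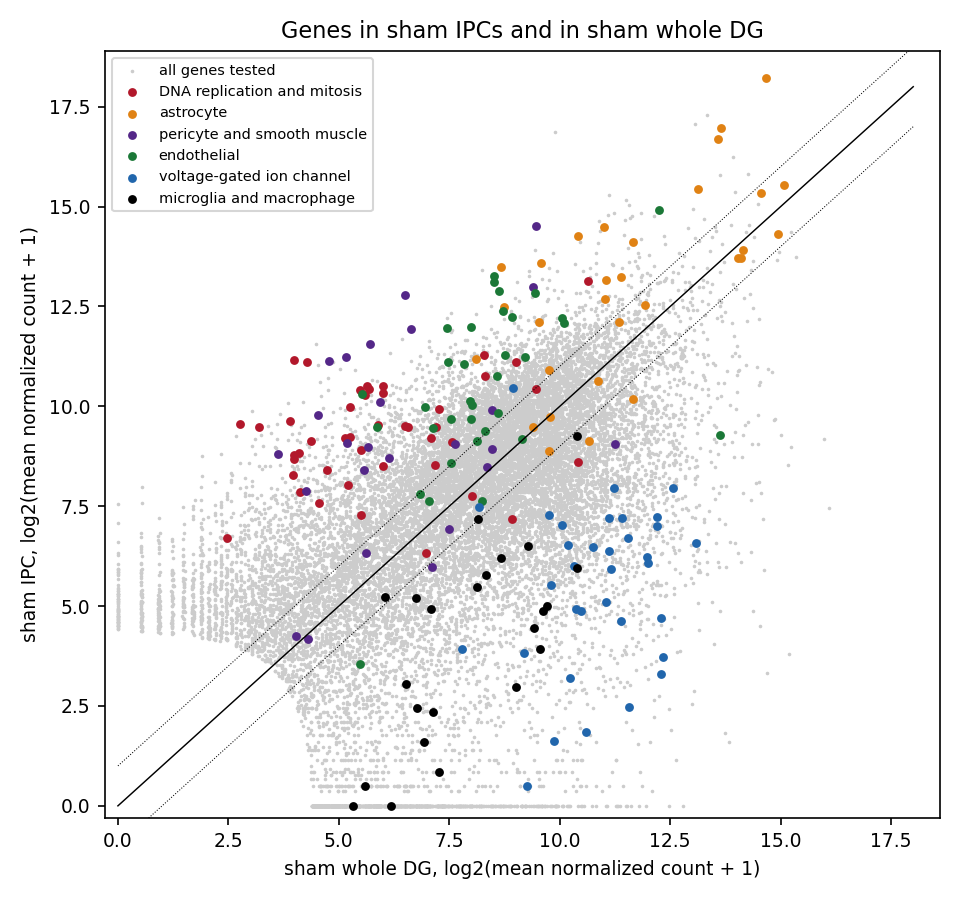
Mean normalized count of each gene tested in sham IPCs (vertical axis) and in sham whole DG (horizontal axis), both as log2(mean + 1), with 6 gene lists in colour, the line of equality and dotted lines at a log2 difference of 1. Genes of DNA replication and mitosis, astrocytes, endothelium and pericytes lie mostly above the line, and ion channel and microglia genes lie mostly below it.

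The 2 groups also differed in how much mice varied. The median SD of log2 values between mice over the genes tested was 0.68 in sham IPCs and 0.218 in sham whole DG (n = 3 each, unfiltered). Where the mean reached 1000 normalized counts it was 0.404 in sham IPCs and 0.139 in sham whole DG. Pearson's r of log2 values over genes was 0.761 to 0.778 between sham IPC libraries, 0.971 to 0.980 between sham whole DG libraries, and 0.479 to 0.534 across the groups. Of the genes tested in the unfiltered values, 786 had no read in any sham IPC library and 71 had none in any sham whole DG library.

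The transcription factors that define IPCs were higher in the sorted cells. Eomes (Tbr2), the transcription factor by which IPCs of the DG are usually recognised, was at 699, 686 and 933 normalized counts in sham IPCs, against 58.8, 98.9 and 96.0 in sham whole DG, a log2 fold change of 3.2 ± 0.31 (SE) with a limma adjusted p of 0.000555. Neurog2, a proneural factor that starts neuronal differentiation, was at 175, 536 and 736 in sham IPCs, against 23.8, 24.1 and 30.3 in sham whole DG (log2 fold change 3.94 ± 0.61, limma adjusted p = 0.00293). Neurod4, a basic helix-loop-helix factor of the same cascade, was at 345, 156 and 428 in sham IPCs, against 4.2, 8.02 and 2.63 in sham whole DG (log2 fold change 5.69 ± 0.63, limma adjusted p = 0.000853). For all 3 genes every sham IPC library lay above every sham whole DG library. These genes were not particular to the IPC gate, since Eomes was at 693 and 366, Neurog2 at 307 and 230.1 and Neurod4 at 143 and 359 normalized counts in the 2 sham NSC libraries (mice 4 and 6), and no test was made between the sorted groups. Of the 14 genes tested in a list of 15 intermediate progenitor genes, 9 were higher and none was lower, with a median log2 fold change of 2.50 beside -0.52 over all genes. The others that rose were Mfng, which modifies Notch, Hes6, which counters the Notch target Hes1, the cell cycle kinase Cdk6, Gadd45g, Btg2 and the somatostatin receptor Sstr2, which did not pass without the sham whole DG library of mouse 11 (1.56) or of mouse 12 (1.51). Cdk6 stood out by its evenness, at 1430, 1317 and 1338 normalized counts in sham IPCs and at 78.4, 88.2 and 105 in sham whole DG. Insm1 (log2 fold change 0.26 ± 0.38), Dll3 (-0.10), Tcf3 (0.46) and Rgs16 (-0.65) did not pass. The Notch ligand Dll1 had no read in sham IPCs of mice 4 and 5 and was at 112 in mouse 6, against 119 to 143 in sham whole DG, and did not pass (limma adjusted p = 0.0841). Neurog1, the remaining gene of the list, was under the minimum mean. The list took 0.092% to 0.131% of the normalized counts of sham IPC libraries and 0.0151% to 0.0189% of those of sham whole DG, beside 0.0981% to 0.107% of sham NSC libraries.

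Genes of the neuroblast stage split into a group that was higher and a group that was lower. Sox11, an early neuronal factor, was at 11883, 14053 and 20514 normalized counts in sham IPCs, against 1119, 532 and 416 in sham whole DG (log2 fold change 4.58 ± 0.41, limma adjusted p = 0.000413). Dcx, the microtubule-binding protein doublecortin of immature neurons, was at 2197, 1452 and 1925 in sham IPCs, against 337.5, 479.8 and 378 in sham whole DG (log2 fold change 2.21 ± 0.23, limma adjusted p = 0.000687). Both were above whole DG in all 3 libraries. Among 16 neuroblast transcription and chromatin factors 5 were higher: Sox11, Neurod1, Nfib and the chromatin proteins Hmgb2 and Hmgn2. The 7 lower ones were Neurod2, Neurod6, Prox1, Bhlhe22, Bcl11b, Mex3b and Tbr1, several of which mark postmitotic neurons. With libraries rescaled to one median 8 were higher and 6 were lower, and Mex3b lost its call under both rescalings, without the sham IPC library of mouse 5 and without any one of the sham whole DG libraries. Neurod2 was at 71.9, 166 and 72.8 in sham IPCs, against 6495, 2626 and 3623 in sham whole DG (log2 fold change -5.36 ± 0.48, limma adjusted p = 0.000398). Bcl11b (Ctip2) was at 41.4, 0 and 3.60 in sham IPCs and at 3589, 2363 and 2789 in sham whole DG. Prox1, which granule neurons keep for life, was lower but still present, at 1655, 1080 and 1557 in sham IPCs, against 4482, 4016 and 4511 in sham whole DG.

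The neuroblast cytoskeleton and adhesion genes were as mixed, with 11 of 30 higher, 8 lower and a median of 0.26. With libraries rescaled to one median 15 were higher and 5 were lower. Stmn1 (stathmin), Cd24a, Igfbpl1, Elavl4, Fxyd6, Dpysl3, Tmsb10, Marcksl1, Calb2 and Tuba1a rose with Dcx. Map1b, Mapt (tau), Stmn2, Stmn3, Stmn4, Elavl3, Celf4 and Basp1 fell. Stmn1 was at 21490, 27563 and 35689 in sham IPCs, against 1897, 2367 and 2289 in sham whole DG. The study named 4 genes among its IPC markers and read them in untreated mice, by their level over whole DG in IPCs beside that in NSCs. In the sham contrast with whole DG, which is another comparison, these 4 did not move together. Neurog2 and Calb2 (log2 fold change 1.19 ± 0.28, limma adjusted p = 0.0141, not passed without the sham whole DG library of mouse 10 or 12) were higher, Stmn2 was lower (-1.30 ± 0.19, limma adjusted p = 0.00251), and Tubb3 lay just under the threshold of fold change at 0.99 ± 0.22. Both depended on the scaling, since Stmn2 gave -0.98 and Tubb3 1.32 with libraries rescaled to one total. Of the axon guidance and migration genes none of 35 was higher and 22 were lower. Slit1, a secreted ligand of Robo receptors, had no read in any sham IPC library and 7312, 6337 and 7466 normalized counts in sham whole DG. Taken against a floor of 3 reads over the 3 sham IPC libraries together, it was at least 6458-fold lower in sham IPCs. This bound and those given below cover counting error only, and not loss of RNA before sequencing.

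**Figure D2:**
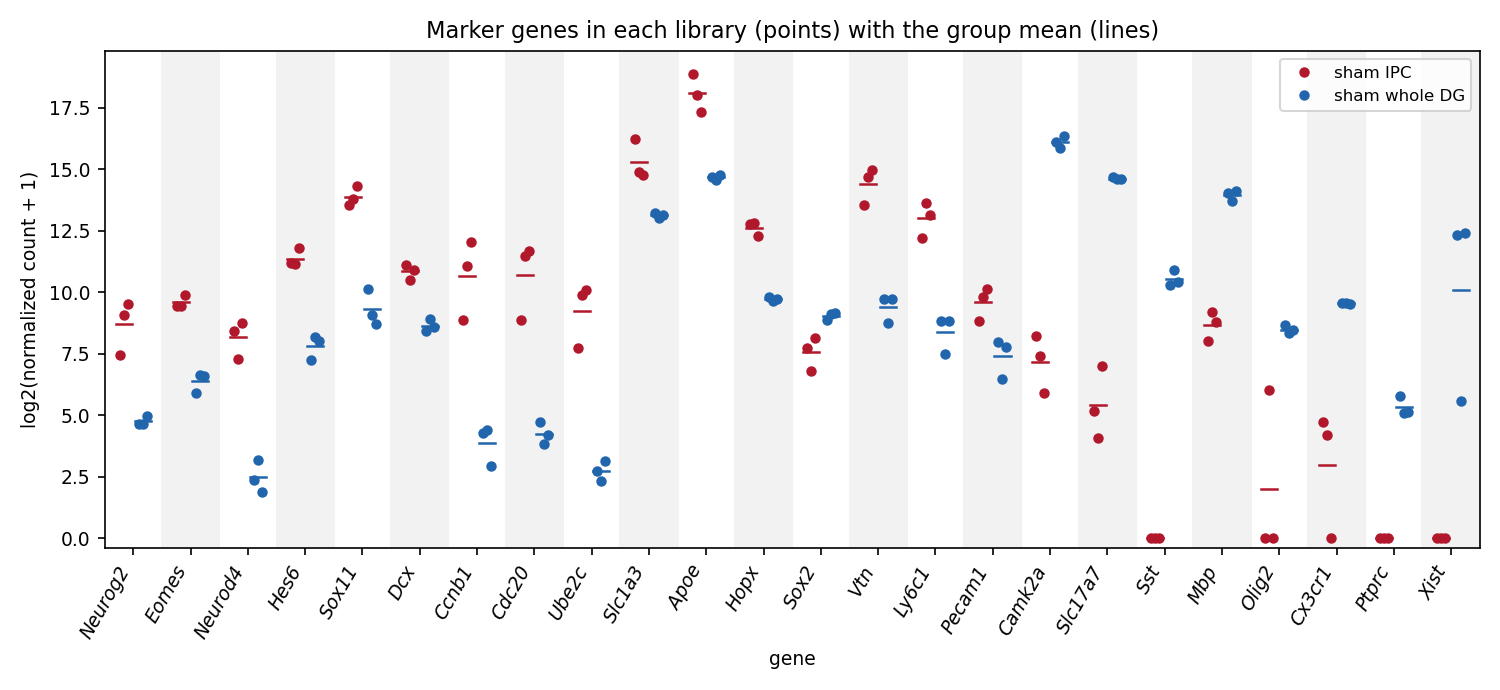
Values of 24 marker genes in each library as log2(normalized count + 1), with sham IPC in red and sham whole DG in blue, points for mice and lines for group means. The progenitor, cell cycle, astrocyte and vessel genes shown are higher in sham IPCs, except Sox2, while neuronal, oligodendroglial, microglial and blood genes are lower, with Sst, Ptprc and Xist at 0 in all 3 sham IPC libraries.

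Genes of the cell cycle rose together. Of 44 genes of DNA replication and mitosis 32 were higher, 1 was lower and 11 did not pass, with a median log2 fold change of 3.22. In the CLEAR genes 36 of 40 were higher. The unfiltered count was 37, 32 and 31 without the sham IPC library of mouse 4, 5 or 6, and 28, 29 and 29 without the sham whole DG library of mouse 10, 11 or 12. Ccnb1, the cyclin B1 that starts mitosis, was at 470.2, 2131 and 4222 normalized counts in sham IPCs, against 18.2, 20.1 and 6.58 in sham whole DG (log2 fold change 6.80 ± 0.90, limma adjusted p = 0.00161). Cdc20, an activator of the anaphase-promoting complex, was at 469, 2863 and 3268 in sham IPCs, against 25.2, 13.4 and 17.1 in sham whole DG (6.43 ± 0.81, limma adjusted p = 0.00134). Ube2c, the ubiquitin-conjugating enzyme of that complex, was at 209.5, 939.8 and 1100 in sham IPCs, against 5.60, 4.01 and 7.89 in sham whole DG (6.50 ± 0.75, limma adjusted p = 0.000995). The groups did not overlap for any of them, and mouse 4 was the lowest sham IPC library each time. In the 2 sham NSC libraries Ccnb1 was at 2397 and 2395, and the mitosis list took 0.309% to 0.425% of their normalized counts, beside 0.198% to 0.519% in sham IPCs. Mcm7, a subunit of the helicase loaded at replication origins, was at 1844, 1950 and 3734 in sham IPCs, against 325, 281 and 322 in sham whole DG (2.94 ± 0.30). Birc5 (5.99), Cdk1 (5.02), Top2a (4.23), Mki67 (3.02) and the ribonucleotide reductase subunit Rrm2 (4.75) also passed, Cdk1 not without the sham IPC library of mouse 5 or 6 or the sham whole DG library of mouse 10 or 12. Among the genes that did not pass, Pcna had a log2 fold change of 0.83, Mcm2 of 2.13 (it passed in the CLEAR genes) and Ccnd1 of -2.14. The lower gene was Gins2 (-1.85 ± 0.57), a part of the replicative helicase, whose call was lost under both rescalings, without the variance trend, without the sham IPC library of mouse 5 and without any one of the sham whole DG libraries. Of the 21 replication-dependent histone genes tested, 13 were higher and 1 was lower, with a median of 2.55, but these genes are near-copies of each other, so the split of reads between them is uncertain.

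Because the mitotic genes rose together, the sequences before their start sites are shown for the 4 named above (RefSeq, build GRCm38.p6, 120 bases that end at the base before the start, each on the gene's own strand). Capitals mark CCAAT, the box that the factor NF-Y binds, and TTTGAA, the core of the cell cycle homology region, on either strand.
Ccnb1 (chr13:100786487-100786606, minus strand): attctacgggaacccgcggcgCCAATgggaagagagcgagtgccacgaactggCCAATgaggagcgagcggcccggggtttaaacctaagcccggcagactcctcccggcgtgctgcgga
Cdc20 (chr4:118437344-118437463, minus strand): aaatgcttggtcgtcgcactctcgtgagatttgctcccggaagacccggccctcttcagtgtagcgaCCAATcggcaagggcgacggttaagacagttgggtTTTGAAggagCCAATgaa
Ube2c (chr2:164769809-164769928, plus strand): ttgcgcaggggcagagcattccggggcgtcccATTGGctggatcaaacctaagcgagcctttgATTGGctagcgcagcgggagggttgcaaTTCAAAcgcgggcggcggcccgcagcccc
Mcm7 (chr5:138171884-138172003, minus strand): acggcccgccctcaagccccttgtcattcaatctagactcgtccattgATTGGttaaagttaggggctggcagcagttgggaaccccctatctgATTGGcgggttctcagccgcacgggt
Each of these 4 stretches holds 2 CCAAT boxes, and those of Cdc20 and Ube2c also hold 1 TTTGAA. Of 44 genes in the list 35 matched RefSeq windows by symbol, with 39 windows of 250 bases before the start. CCAAT on either strand was in 33 of the 39 (84.6%), against 33.8% of all 32851 windows, and TTTGAA was in 11 (28.2%), against 16% of all. Of the 18015 genes tested 11821 matched windows by symbol, and in their 15150 windows the shares were 34.7% for CCAAT and 10.7% for TTTGAA. Among the other lists searched, CCAAT was in 24.1% (mature neuron) to 52.9% (neuroblast factor) of windows. TTTGAA did not set the mitosis list apart, being in 29.4% of neuroblast factor windows and 25.8% of endothelial windows. A match describes these letters only and was not tested as a binding site.

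Genes of mature neurons fell. Camk2a, a calcium-dependent kinase of excitatory synapses and the most abundant gene of sham whole DG, was at 298, 167 and 59.3 normalized counts in sham IPCs, against 69645, 59275 and 82363 in sham whole DG (log2 fold change -8.91 ± 0.57, limma adjusted p = 0.000183). Slc17a7, the vesicular glutamate transporter of granule neurons, was at 35.3, 15.9 and 125 in sham IPCs, against 25894, 24793 and 24724 in sham whole DG (-9.21 ± 0.70, limma adjusted p = 0.000265). Every sham IPC library was far below every whole DG library. Of 32 genes of mature granule and general neurons 30 were lower and none was higher, with a median of -6.56 and a CLEAR value for only 17. Dsp, a desmosomal protein that marks DG granule neurons, had no read in sham IPCs and was at least 2637-fold lower. Rbfox3 (NeuN), a splicing factor of neuronal nuclei, fell less than most of the list, at 1106, 888.5 and 1310 in sham IPCs and 4071, 4214 and 5162 in sham whole DG (-2.03 ± 0.19). In bulk libraries such as these, fewer cells of a type and less RNA per cell cannot be told apart.

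Genes of the synaptic machinery were also lower. Of 33 synaptic vesicle and release genes 29 were lower, of 33 glutamate and GABA receptor subunits 27 were lower, and of 34 voltage-gated ion channel subunits 31 were lower, with medians of -4.70, -5.11 and -6.23. Only 1 of the 34 channel genes had a CLEAR value in every library, so nearly all of this group is visible in the unfiltered values alone. That gene, Kcnn2, passed as higher in the CLEAR genes (1.26 ± 0.46) and did not pass in the unfiltered values. Without the sham whole DG library of mouse 10, 11 or 12 the number of channel genes that were lower was 23, 22 or 23. Gria2, an AMPA receptor subunit, was the receptor gene with the smallest fall that passed (-1.53 ± 0.12, and -0.97 with libraries rescaled to one median), at 4568, 4752 and 4294 in sham IPCs and 12016, 14679 and 12691 in sham whole DG. The 2 receptor genes that rose were Grm3 (2.79 ± 0.59) and Gabrg1 (2.28 ± 0.48), both also expressed by astrocytes. Interneuron and mossy cell genes were lower in 16 of 24 and higher in 1. The lower genes numbered 13 without any one of the sham whole DG libraries. The list's shares of the libraries overlapped, at 0.114% to 0.155% in sham IPCs and 0.143% to 0.181% in sham whole DG. Sst and the vesicular GABA transporter Slc32a1 had no read in sham IPCs, at least 1382-fold and at least 864-fold lower. The largest falls in the unfiltered values after Slit1 were those of Eef1a2, Sptb, Nptxr, Dlg4, Cpne7, Nt5dc3, Vsnl1, Icam5 and Creg2, with log2 fold changes of -12.61 to -11.56. Values so near 0 in sham IPCs make these fitted changes depend on the pseudocount. Dlg4, the scaffold PSD-95, was at 1.22, 3.66 and 2.70 in sham IPCs, against 15461, 11521 and 14292 in sham whole DG. In the CLEAR genes the largest falls after Camk2a were those of Klc2, Nrgn, Gm2260, Inpp5j, Lrrc4, Bcl2l2, Fbxl16, Thy1 and Wipf3, from -8.88 to -7.04.

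The gate took cells without surface GLAST, the glutamate transporter encoded by Slc1a3, yet astrocyte genes were higher in the sorted cells. Slc1a3 itself was at 76411, 29836 and 28130 normalized counts in sham IPCs, against 9564, 8271 and 9000 in sham whole DG (log2 fold change 2.16 ± 0.39, limma adjusted p = 0.00556). In the 2 sham NSC libraries, whose gate took GLAST-positive cells of mice 4 and 6, Slc1a3 was at 80201 and 36091. Apoe, the lipid carrier that was the most abundant gene of all 3 sham IPC libraries, was at 478574, 265529 and 165710, against 26188, 24005 and 27764 in sham whole DG (3.41 ± 0.37, limma adjusted p = 0.00081). Sham IPCs did not overlap sham whole DG for either gene, and mouse 4 was highest for both. Of 30 astrocyte genes 15 were higher and 1 was lower, with a median of 1.14. Among the higher ones were Aldoc (3.24), Clu (2.93), the gap junction gene Gja1 (3.31) and the water channel Aqp4 (1.46 ± 0.45, a call lost without the sham IPC library of mouse 4 or any one of the sham whole DG libraries), while the defining markers Gfap (-0.44), S100b (-0.13), Aldh1l1 (0.82) and Slc1a2 (-0.74) did not pass. The list took 10.3%, 6.17% and 4.43% of the normalized counts of sham IPCs of mice 4, 5 and 6, and 1.47% to 1.63% of sham whole DG. In the 2 sham NSC libraries it took 6.03% to 9.57%. Without the sham IPC library of mouse 4, 14 astrocyte genes were higher and 5 were lower. Without mouse 6, 17 were higher, and without any one of the sham whole DG libraries 11 were. The part of astrocyte RNA in the other results was not tested.

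Radial glia genes, many of which astrocytes share, were mixed. Of 18 genes 6 were higher (Hes5, Hopx, Sox9, Prom1, Fabp7 and Vim) and 2 were lower (Sox2 and Frzb), with a median of 0.30. Vim lost its call without the sham IPC library of mouse 5 (1.51) or 6 (1.26) and without the sham whole DG library of mouse 11 (1.1) or 12 (1.61). Sox2, which both NSCs and IPCs are known to express, was at 212, 111 and 281 normalized counts in sham IPCs, against 465, 549 and 567 in sham whole DG (-1.48 ± 0.38, limma adjusted p = 0.0209). The groups did not overlap, but Sox2 lost its call without any one of the sham whole DG libraries and with libraries rescaled to one median, and Frzb lost its call without that of mouse 11 or 12. Nes, whose regulatory elements drive the GFP of the sort, was at 424, 226 and 191 in sham IPCs and 344, 104 and 164 in sham whole DG, and the groups overlapped (0.54 ± 0.55, limma adjusted p = 0.444). The 4 genes the study used as NSC markers, B2m, Id1, Id3 and Vim, were all higher in sham IPCs than in sham whole DG. The study read them in untreated mice, by their level over whole DG in NSCs beside that in IPCs, which is another comparison. The 4 genes took 0.129% to 0.148% of sham IPC libraries and 0.123% to 0.175% of sham NSC libraries. Id3, an inhibitor of basic helix-loop-helix factors, was at 12706, 10149 and 9091 in sham IPCs, against 685, 486 and 729 in sham whole DG (4.08 ± 0.21).

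**Figure D3:**
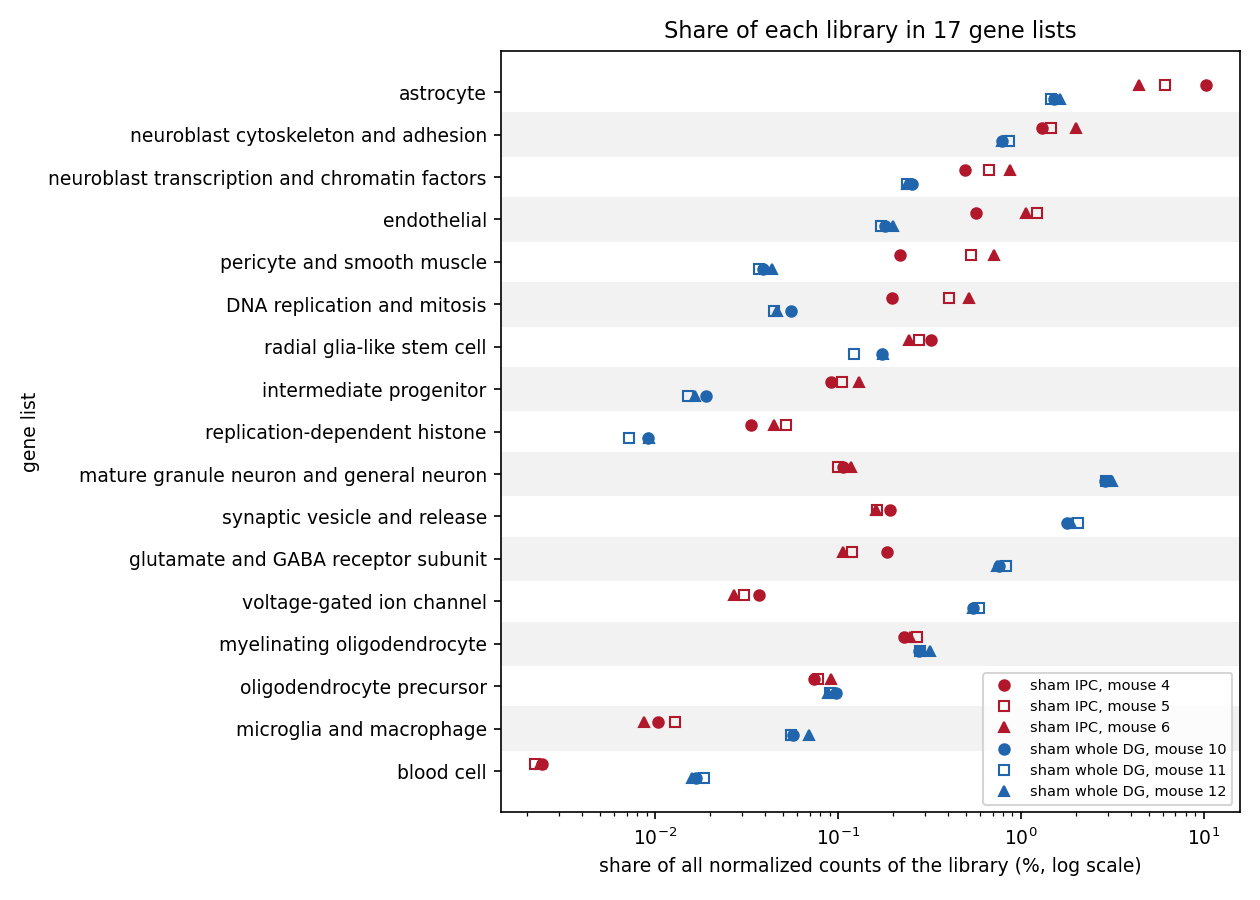
Share of all normalized counts of each library taken by 17 gene lists, on a log axis, with sham IPC (red) above sham whole DG (blue) and a symbol for each mouse. The astrocyte share is highest in the sham IPC library of mouse 4 (10.3%), in which the cell cycle, pericyte and endothelial shares are the lowest of the 3.

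Genes of blood vessel cells were higher in the sorted cells although the gate took CD31-negative cells. Pecam1, which encodes CD31, was at 447, 901 and 1104 normalized counts in sham IPCs, against 248, 86.9 and 218 in sham whole DG (log2 fold change 2.18 ± 0.54, limma adjusted p = 0.0172). Of 34 endothelial genes 24 were higher and 1, Spock2, was lower, with a median of 2.15. The tight junction gene Cldn5 (3.65), the surface antigen Ly6c1 (4.61 ± 0.51), Itm2a (4.59) and Flt1 (1.91, a call lost without the sham IPC library of mouse 5 or 6 or any one of the sham whole DG libraries) were among the higher ones, while Cdh5 (0.58), Kdr (0.94) and Vwf (-1.32) did not pass. Pericyte and smooth muscle genes were higher in 16 of 25, with a median of 2.72. Vtn (vitronectin), which brain pericytes make, was at 12026, 26066 and 32336 in sham IPCs, against 846, 430.3 and 851 in sham whole DG (5.00 ± 0.45, limma adjusted p = 0.000427). Kcnj8 (5.77), a potassium channel subunit of pericytes, Higd1b (6.23), Rgs5 (3.51) and Myl9 (6.20), a smooth muscle myosin light chain, also passed. Acta2, smooth muscle actin, differed widely between mice, at 90.1, 1994 and 5157 in sham IPCs, against 37.8, 9.35 and 56.6 in sham whole DG, and passed only with all 6 libraries or without the sham IPC library of mouse 4. The 2 lists took 0.57% to 1.22% and 0.218% to 0.71% of sham IPC libraries, against 0.172% to 0.2% and 0.0371% to 0.0436% of sham whole DG. In sham NSC libraries they took 0.759% to 1.85% and 0.197% to 0.869%. The part of vessel RNA in the other results was not tested.

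Several of the 10 largest rises in the CLEAR genes were of these kinds. They were P2ry14 (7.04), a receptor for UDP-sugars, Carmn (6.93), a smooth muscle long noncoding RNA, Ccnb1, Fam64a (6.68), a mitotic regulator, Art3 (6.65), Chaf1b (6.61), a subunit of the chromatin assembly factor that acts behind the replication fork, Ube2c, Cdc20, Lockd (6.41) and Cdc25c (6.35), a phosphatase that starts mitosis. P2ry14 was at 1341, 3903 and 3802 normalized counts in sham IPCs, against 29.4, 10.7 and 23.7 in sham whole DG. Carmn was at 34.1, 417 and 298 in sham IPCs and at 1.40, 0 and 0 in sham whole DG.

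Of the cell types that the gate was set to exclude by CD45, O1 and O4, microglia and blood cells were low and oligodendroglia were mixed. Ptprc, which encodes CD45, had no read in any sham IPC library and was at 53.2, 33.4 and 34.2 normalized counts in sham whole DG, at least 37-fold lower. Of 23 microglia and macrophage genes 18 were lower and none was higher, with a median of -4.88. The count was 11, 13 and 12 without the sham whole DG library of mouse 10, 11 or 12. Cx3cr1, the fractalkine receptor of microglia, was at 25.6, 17.1 and 0 in sham IPCs, against 749, 758 and 735 in sham whole DG (-6.58 ± 1.27, limma adjusted p = 0.00695). Of 24 genes of myelinating oligodendrocytes 11 were lower and 6 were higher, with a median of -2.50, whereas among the 13 with CLEAR values 2 were lower and 6 were higher, with a median of 1.23. The list took 0.23% to 0.272% of sham IPC libraries and 0.278% to 0.318% of sham whole DG. The lower genes included the myelin genes Mbp (-5.28 ± 0.31), Mog (-6.20), Mag (-7.51, a call lost without any one library except the sham IPC library of mouse 4) and Mobp (-5.04). The higher ones were Car2, Apod, Sept4, Cryab, Enpp2 and Gsn, which other cells of the brain also express. Mbp was at 257, 577 and 445 in sham IPCs, against 16518, 13459 and 17568 in sham whole DG. Among oligodendrocyte precursor genes Olig2 had no read in mice 4 and 6 and was at 64.7 in mouse 5 (it did not pass without the sham IPC library of mouse 6 or without any one of the sham whole DG libraries), whereas Pdgfra was at 1.22, 126 and 870.0 in sham IPCs and at 754 to 858 in sham whole DG, so that the groups overlapped. Without the sham IPC library of mouse 6 Pdgfra was lower (-5.60). Of the 15 genes of that list 4 were lower, a share near the 29.6% of all genes, and 1 was higher. The lower genes numbered 2 without any one of the sham whole DG libraries and 6 without the sham IPC library of mouse 6, and the list's shares of the libraries overlapped, at 0.074% to 0.0918% in sham IPCs and 0.0888% to 0.0981% in sham whole DG. Of 6 blood genes tested 5 were lower, with hemoglobin Hbb-bs at 3.65, 6.10 and 0.90 in sham IPCs and 129, 323 and 80.3 in sham whole DG. Ttr, the defining transcript of choroid plexus, was at 0 in all 3 sham IPC libraries. Other genes of choroid plexus and ependyma appeared in single sham IPC libraries, as Otx2 (67.0) and Folr1 (64.6) in mouse 4 and the cilium genes Tmem212 (563) and Ccdc153 (308) in mouse 5. Fibroblast genes gave 5 higher and 1 lower of 20, with the proteoglycan Dcn at 1584, 467 and 1456 in sham IPCs, against 165, 50.8 and 178 in sham whole DG.

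Immediate early genes were called in both directions, at shares not far from those of all genes. Of 29 immediate early genes 7 were higher and 10 were lower, with a median of -0.97, beside 17.2% higher and 29.6% lower over all genes. The list's shares of the libraries overlapped, at 0.124% to 0.157% in sham IPCs and 0.0926% to 0.139% in sham whole DG. Fos was at 3015, 3471 and 2520 normalized counts in sham IPCs, against 354, 89.5 and 149 in sham whole DG (log2 fold change 4.14 ± 0.50, limma adjusted p = 0.0012), and Dusp1 (4.09 ± 0.23) and Ier2 (3.74 ± 0.34) rose with it. Of the lower genes, most are known to be induced in neurons by activity. Egr3 had no read in sham IPCs (at least 865-fold lower), Arc was at 0, 1.22 and 137 in sham IPCs, against 2042, 446 and 613 in sham whole DG (a call lost without any one library except the sham IPC library of mouse 6), and Npas4, Nr4a2, Nr4a3, Bdnf and Homer1 were also lower. Heat shock and chaperone genes gave 3 higher and 6 lower of 20, near the 17.2% and 29.6% of all genes. Their shares of the libraries overlapped, at 0.577% to 0.791% in sham IPCs and 0.66% to 0.761% in sham whole DG. Hspb1 (4.07) was the highest, and Hsp90aa1 (-2.24 ± 0.29) and Hsp90ab1 (-1.24 ± 0.10, and -0.68 with libraries rescaled to one median) were among the lower ones. Of the 23 inflammation and reactive glia genes tested 6 were higher, among them the NF-kappaB inhibitor Nfkbia (3.30 ± 0.31), Ifitm3 (4.00) and Vcam1 (2.09), and 3 were lower.

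Among genes that every cell uses, those of ribosomes were lower about as often as all genes, and those of respiration were more often higher. Of 79 cytosolic ribosomal protein genes 22 were lower, a share near the 29.6% of all genes, and 1 was higher. Their median of -0.52 equalled that of all genes. The balance of higher and lower ribosomal genes depended on the scaling. With libraries rescaled to one median 8 were higher, 7 were lower and the median was 0.04. Of 77 nuclear genes of oxidative phosphorylation 28 were higher and none was lower, with a median of 0.68, and with libraries rescaled to one median 51 were higher and none was lower. Ndufc2, a subunit of complex I, was at 6401, 6298 and 4610 normalized counts in sham IPCs, against 1278, 1429 and 1451 in sham whole DG (2.04 ± 0.17), and Rplp1, a ribosomal stalk protein, was at 1394, 1290 and 1145 in sham IPCs, against 5398, 5294 and 6165 in sham whole DG (-2.14 ± 0.13). Both genes have short transcripts.

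Fold changes followed transcript length. With the unfiltered genes divided by length into 5 equal bins, the median log2 fold change was 0.45, 0.28, -0.38, -1.08 and -1.97 from the bin of the shortest transcripts (median 875 bases) to that of the longest (6506 bases). In the CLEAR genes the 5 medians were 0.84, 0.68, 0.22, -0.25 and -0.88. Lengths were those of the longest GENCODE M21 transcript and were found for 97.4% of the unfiltered genes and 98.5% of the CLEAR genes. The ion channel list, with a median length of 8068 bases, had a median log2 fold change of -6.23, below that of the longest bin, and the neuron list had a median of 3680 bases. The mitosis list, which rose, had a median of 3462 bases. The oxidative phosphorylation list had a median of 1141 bases and a median log2 fold change of 0.68. The axon guidance list had 6723 bases and -3.18, and the ribosomal protein list 1059 bases and -0.52. The part of length in the changes of these lists was not tested. Libraries of the 2 groups were made with different kits, so length, kit and cell type cannot be told apart here.

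CLEAR bore on the 2 directions unequally. Of the 3095 genes higher in sham IPCs in the unfiltered values, 82.8% had a CLEAR value in all 3 sham IPC libraries. Of the 5328 lower genes 40.7% did, and 37.4% had none in any. By size, 73.0% of genes with a log2 fold change from 0 to 1 kept a CLEAR value in all 3 libraries, against 13.2% of those from -6 to -4 and 0.89% of those below -8. Both tables hold the same values where CLEAR left one, so calls in the CLEAR genes are no second measurement.

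**Figure D4:**
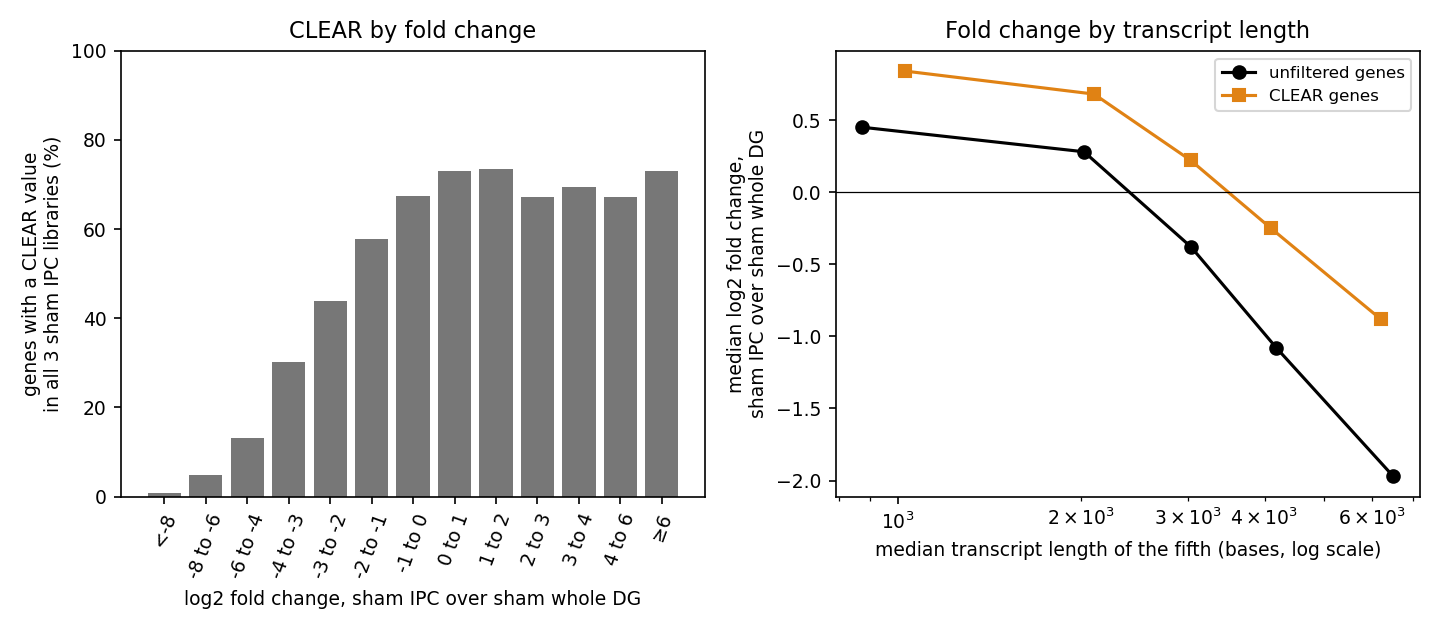
Left, percent of genes with a CLEAR value in all 3 sham IPC libraries by log2 fold change of sham IPC over sham whole DG (bars, unfiltered genes), from 0.89% below -8 to between 67.1% and 73.5% above 0. Right, median log2 fold change in 5 equal bins of the genes by transcript length (log axis), which runs from 0.45 to -1.97 in the unfiltered genes and from 0.84 to -0.88 in the CLEAR genes.

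The contrast was set beside the same contrast in mice killed 4 h after TBI (3 IPC and 3 whole DG libraries) and in untreated mice (3 and 3 mice, in another table normalized separately). None of the sham libraries enters these. Technical replicates of untreated IPCs were averaged per mouse, whereas sham mice had no such replicates. In the unfiltered values 3299 genes (18.5%) were higher and 5446 (30.6%) were lower in TBI IPCs than in TBI whole DG, and 2015 (11.4%) were higher and 5789 (32.6%) lower in untreated IPCs than in untreated whole DG. Of the genes tested in both, 2343 were higher in sham and in TBI, 77.1% of the sham and 71.9% of the TBI list, and 4217 were lower in both, 80.9% and 79.1%. With untreated mice 1159 higher genes were shared, 38.1% of the sham and 59.4% of the untreated list, and 3271 lower genes, 66.3% and 58.7%. The untreated list behind these shares depended on the tool, with 3302 higher genes by edgeR and 3279 by DESeq2 in place of 2015, and 3710 lower genes by edgeR in place of 5789. Few genes were called in opposite directions, 4 and 1 between sham and TBI, against 83 and 103 between sham and untreated mice. A test of the difference itself, sham minus TBI, gave 60 of 18014 genes (0.333%), and this count was between 1 and 259 when each of the 12 libraries was left out in turn, being 1 without TBI whole DG of mouse 8 or of mouse 9 and 259 without TBI IPCs of mouse 1. At an unadjusted limma p under 0.05, with no threshold of fold change, 1224 of the 18014 genes passed. A share of 0.05 would pass that limit with no true difference, so this count is not like the 60. Sham and TBI IPC libraries also differed in depth, as given below.

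**Figure D5:**
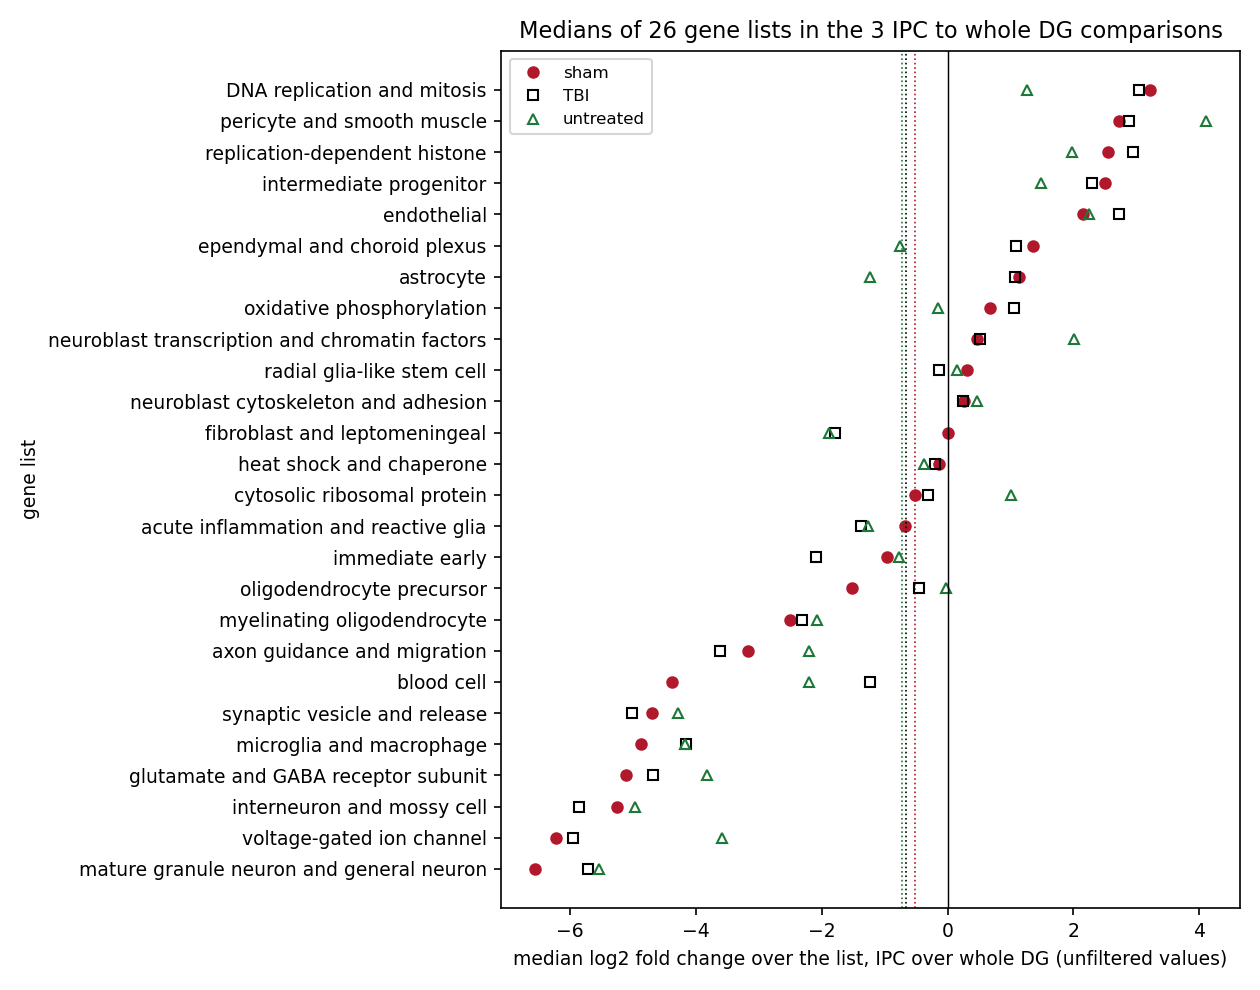
Median log2 fold change of IPC over whole DG over 26 gene lists in sham (filled circles), TBI (squares) and untreated mice (triangles), from unfiltered values, with dotted lines at the medians over all genes of each comparison (-0.52, -0.66 and -0.72). Astrocyte genes are above 0 in sham and TBI (1.14 and 1.07) and below it in untreated mice (-1.23).

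The median of the mature neuron list was -6.56 in sham, -5.71 in TBI and -5.54 in untreated mice, and that of the ion channel list was -6.23, -5.95 and -3.58. The median of the astrocyte list was 1.14 in sham, 1.07 in TBI and -1.23 in untreated mice, with 15, 15 and 0 of 30 genes higher and 1, 3 and 17 lower. Slc1a3 had a log2 fold change of 2.16 in sham and 2.30 in TBI, against -1.48 in untreated mice, and Aqp4 gave 1.46, 1.42 and -2.84. The astrocyte list took 4.43% to 10.3% of sham IPC libraries, 7.03% to 7.89% of TBI IPC libraries and 1.08% to 1.97% of untreated IPC libraries. Mitosis genes were higher in 32 of 44 in sham, 32 in TBI and 16 in untreated mice, with medians of 3.22, 3.04 and 1.26. Ribosomal protein genes were higher in 1 of 79 in sham and in 3 in TBI, against 40 in untreated mice, with medians of -0.52, -0.31 and 1.00. Eomes was higher in all 3 contrasts (3.2, 4.01 and 4.35), as were Neurod4 (5.69, 5.18 and 5.71) and Sox11 (4.58, 3.18 and 4.93), whereas Neurog2 passed in sham (3.94) and TBI (3.91) and not in untreated mice (0.80). The 2 tables were normalized separately and no test was made between them, so these values stand side by side only.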

How the data were processed

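Polyadenylated RNA of sorted cells and whole DG was sequenced as read pairs on an Illumina HiSeq sequencer. The authors removed adapters and reads of rRNA, mtDNA and PhiX, aligned the rest with HISAT2 2.0.6 to GRCm38p4 and counted reads per GENCODE M14 gene with featureCounts of Subread, without regard to strand, so a gene and its antisense partner cannot be told apart. The submitters' processing notes also give CASAVA 1.8.2 and, although the samples are from mouse, name GRCh38. Normalized counts, the signal that was deposited, are gene counts that the authors divided by a DESeq2 size factor for each library. The filtered table is empty where a gene failed CLEAR in a library. In every library 100% of the values were whole multiples of 1 step (within 0.05), so whole reads were recovered for edgeR and DESeq2. The depth limits precision to counting error at best, since reads carried no molecular identifiers.

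Of 50600 rows, 678 with one of 310 repeated symbols were left out (Itgam among them), which leaves 49922 genes. Of the columns of unfiltered values 1 matched no label and was not used. Samples were grouped by their labels. Replicates are separate mice. limma 3.58.1 in R 4.3.3 (eBayes, trend, pseudocount 1) compared the 3 sham IPC with the 3 sham whole DG libraries, and tested sham minus TBI as an interaction. P values were two-sided and adjusted over all genes tested. edgeR 4.0.16 (quasi-likelihood, TMM), DESeq2 1.42.0, other pseudocounts, scalings, filters and spreads, and each library left out were alternatives. A fold against a group with no read was taken against a floor of 3 reads over the group and is a lower bound for counting error only. The 30 gene lists and all their members (808 entries, 3 matched by synonym) were chosen with earlier results of these data known.

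Genes named are the 10 largest rises and falls in the CLEAR genes and the 10 largest falls in the unfiltered values (past the threshold, groups not overlapping, mean in the higher group 100 or more), up to 4 members of each list that passed or the 2 most abundant where none did, sort genes and study markers. Other list members and genes are named as examples chosen after their values were seen. The test was checked on simulated counts with few changed genes and the same dispersion in both groups. That check therefore does not cover the unequal spread of sham IPCs and sham whole DG. Lengths are from GENCODE M21 and promoter windows from RefSeq.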

Additional observations from a re-analysis of the deposited data

Results flagged for a closer look

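The difference between IPCs and whole DG was tested for a difference between sham and TBI (limma interaction on unfiltered values), and 60 genes passed. Among the genes named here they were Wipf3, Cpne7, Vsnl1 and Mobp, each lower in IPCs than in whole DG after both treatments. Cpne7 had no read in the 3 sham IPC libraries and 158.9, 92.2 and 77.9 normalized counts in TBI IPCs, with 4044, 4645 and 3152 in sham whole DG and 3616, 2911 and 2984 in TBI whole DG (sham minus TBI -7.03 on the log2 scale). Vsnl1 was at 0, 0 and 0.90 in sham IPCs and at 14.1, 27.1 and 16.3 in TBI IPCs (-4.2). In Mobp the difference had the other sign, at 57.3, 312.5 and 237.3 in sham IPCs and at 0.56, 0 and 0 in TBI IPCs (6.21), as did Wipf3, at 49.9, 146.5 and 88.1 in sham IPCs and 1.69, 3.1 and 10.2 in TBI IPCs (4.65). Leaving out TBI whole DG of mouse 8 or of mouse 9 left 1 gene past the threshold, and leaving out TBI IPCs of mouse 1 gave 259. TBI IPC libraries were deeper, with 16351321 to 21598519 reads in genes, against 9604877 to 12804286 in sham IPC libraries. The codes that end the column names also differed between all sham and all TBI IPC libraries. Treatment, depth and what these codes stand for therefore cannot be told apart in these differences.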

How the results depend on the processing

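No paired analysis was possible because the sham IPC libraries (mice 4, 5 and 6) and the sham whole DG libraries (mice 10, 11 and 12) share no mouse number. Of 151 genes named by the rule, all kept direction and side of the threshold with pseudocounts of 0.5 and 10 and without the variance trend, and 141 to 149 did when 1 library was left out. Over those fits the CLEAR counts were 2327 to 3071 higher and 2048 to 2892 lower, and the unfiltered counts 2400 to 3531 higher and 3832 to 5906 lower. With a CLEAR value required in every library of the cohort 1582 genes were lower. With libraries rescaled to one median 4719 unfiltered genes were higher. Keeping only libraries with Y-linked genes, an alternative added after seeing the data, set 3 sham IPC libraries against 1 of sham whole DG, which is assumed to vary like the others, and gave 735 higher and 645 lower CLEAR genes and 350 higher and 835 lower unfiltered genes. In that setting 53 named genes kept their call and 96 lost it, and 2 mitosis, 1 astrocyte, 4 endothelial and 4 pericyte genes were higher, with list medians of 3.19, 1.40, 2.79 and 3.22. With a variance for each group Vim, Calb2, Pecam1 and Sstr2 lost their calls, and with all groups of the cohort in one fit Hbb-bs and Dcn did. The sham minus TBI count of 60 was 15 with a pseudocount of 10 and 1 to 259 with 1 library left out. In untreated mice 1841 CLEAR genes were lower with technical replicate 1 alone, and in the unfiltered values edgeR gave 3302 higher and 3710 lower and DESeq2 3279 higher. Direction reversed, with no call in the reversed direction, for S100b at 0.19 and 0.43 (rescaled to one total and one median), 0.06 (edgeR) and 0.24 (without sham IPC of mouse 6, the values with 1 library left out running from -0.38 to 0.24), for Cspg4 at 0.15 (one median), 0.23 (edgeR), 0.15 (DESeq2) and 0.19 (without sham IPC of mouse 4, the values with 1 library left out running from -1.24, a call without sham IPC of mouse 6, to 0.19), and for Vwf at 0.16 (Y-linked libraries only). The causes were not tested. Genes at 0 in sham IPCs are limited by depth to the bounds given.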

Other observations

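Ptgds, which encodes the prostaglandin D synthase of meninges and choroid plexus, was at 78609, 1858 and 7639 normalized counts in sham IPCs of mice 4, 5 and 6, against 4279, 2149 and 4629 in sham whole DG, and did not pass. The library of mouse 4 stood above all others, and that of mouse 5 lay below all 3 whole DG libraries. In the library of mouse 4 the fibroblast and leptomeningeal list took 0.661% of normalized counts, beside 0.0744% and 0.161% in mice 5 and 6 and 0.0317% to 0.0583% in sham whole DG.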
